A study of Mus musculus with 12 samples.

Results

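The genes described here encode the matrix metalloproteases (Mmp), the ADAM and ADAMTS proteases and their tissue inhibitors (Timp). They were chosen by symbol, as every Mmp, Timp, Adam or Adamts symbol followed by a number, which gave 79 genes of the 24421 symbols counted. Of these, 23 were Mmp, 33 were Adam, 19 were Adamts and 4 were Timp genes. The RNA came from 12 samples of 6 mice on a standard diet, each of which gave 1 liver tumor and 1 sample of non-tumoral liver. In 4 p21+/Tert mice the telomerase gene Tert is expressed from the promoter of Cdkn1a (p21). In 2 p21+/TertCi mice the same promoter drives a catalytically inactive TERT. Livers are written with the number of their mouse, as L662, L663, L941 and L992 (p21+/Tert) and L981 and L984 (p21+/TertCi). Every mouse therefore carried a p21-driven Tert allele, and no wild-type liver or tumor was analysed here. By the study's own naming, T-HCC662, T-HCC663, T-HCC941 and TCi-HCC981 are hepatocellular carcinomas and T-HCA992 and TCi-HCA984 are adenomas, although its histology lists T-HCC663 as an adenoma. By the mutations that the study lists, Ctnnb1 (encoding β-catenin) was mutated in T-HCC662 and T-HCC663, Egfr or Hras in T-HCC941 and TCi-HCC981, and neither in T-HCA992 and TCi-HCA984. Both Ctnnb1-mutated tumors were p21+/Tert, so that class and that genotype cannot be told apart in them. Both tumors with neither mutation were adenomas and both Egfr- or Hras-mutated tumors were carcinomas. Driver class and diagnosis therefore cannot be told apart between these classes.

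MMPs are zinc proteases that are made as inactive precursors and cut collagens, elastin, laminins and many non-matrix proteins once a propeptide is removed. Membrane-type MMPs are anchored at the cell surface, where MMP14 also activates pro-MMP2. ADAMs are membrane proteins, and the catalytic ones, foremost ADAM10 and ADAM17, shed the ectodomains of growth factors, cytokine receptors and Notch. ADAMTS proteases are secreted and cut proteoglycans, procollagen propeptides or von Willebrand factor. TIMPs bind the active site of MMPs and, in the case of TIMP3, of several ADAMs and ADAMTSs. In the liver, stellate cells, macrophages, endothelial cells and hepatocytes each express part of this family, and the balance of proteases and TIMPs governs how scar matrix is laid down and removed.

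Between 14571716 and 26170661 reads were counted to genes per library, and the 79 genes together held 0.0415 to 0.0915% of them. Levels are given as CPM, counts per 1000000 counts of a library whose size was scaled by edgeR. A count of 3, used as the floor of detection, corresponded to 0.107 to 0.227 CPM depending on the library, and intervals from counts cover counting error only. Hepatocyte markers (Alb, Apoa1, Ttr, Serpina1c and Hnf4a) were high in all 12 libraries, summing to 27800 to 52300 CPM in livers and 15600 to 93500 CPM in tumors. In bulk RNA, fewer cells of a type and less RNA per cell cannot be told apart.

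Mmp13 and Mmp12, which neighbour each other in a cluster of Mmp genes on chromosome 9, carried the largest differences between tumors and livers. The 250 bases before their annotated start sites are shown because both hold the letters TGANTCA, the consensus of AP-1 (Fos and Jun) binding, close to the start. Sequences are from RefSeq (GRCm38.p6) and read 5′ to 3′ on the plus strand, from chr9:7272264-7272513 for Mmp13 and chr9:7347124-7347373 for Mmp12, with the match in capitals.
Mmp13: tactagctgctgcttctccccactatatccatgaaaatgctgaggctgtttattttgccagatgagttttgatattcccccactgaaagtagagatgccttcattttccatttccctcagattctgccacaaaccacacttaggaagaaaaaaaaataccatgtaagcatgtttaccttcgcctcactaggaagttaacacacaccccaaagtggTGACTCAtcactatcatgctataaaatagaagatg
Mmp12: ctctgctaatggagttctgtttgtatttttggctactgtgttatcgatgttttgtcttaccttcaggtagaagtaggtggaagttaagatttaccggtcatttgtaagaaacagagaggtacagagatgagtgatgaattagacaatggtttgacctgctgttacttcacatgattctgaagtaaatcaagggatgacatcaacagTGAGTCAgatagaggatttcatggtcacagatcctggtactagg
The first base of the match lies 35 bases before the start in Mmp13 and 44 bases before it in Mmp12. A further annotated start of Mmp12 had no match.

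The same letters occurred in 13 of the 54 promoters (24.1%) that could be matched for 49 of the 79 genes, each taken from 250 bases before to 50 bases after the start, against 2565 of 32851 promoters of all genes (7.81%). Matches were sought on both strands, which for these palindromic letters is the same search, and a match is a description of the letters and not of a bound site. Of the 13, 8 belonged to Mmp genes of the chromosome 9 cluster, and the remaining 5 to Adam genes. Windows of 27 bases around the match in cluster genes and in Adam19 are shown for comparison with Mmp13 and Mmp12.
Mmp3: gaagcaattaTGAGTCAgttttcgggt
Mmp7: agtgtgcaaaTGAGTCAcctatttcca
Mmp10: agcacccatgTGAGTCAtgcttagtga
Mmp1a: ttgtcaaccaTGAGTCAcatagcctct
Mmp1b: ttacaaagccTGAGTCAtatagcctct
Mmp20: atttgagacaTGAATCAtcacttacag
Adam19: gtccttcaccTGAGTCAgcgatgctcc
Among these, Mmp1a, Mmp1b, Mmp10 and Mmp20 had no count in any library. The Adam genes not shown, Adam1b, Adam20, Adam25 and Adam29, had none either, which makes 8 of the 13. Adam20 and Adam25 share the same 27 bases around the match. The letters were thus present both in promoters of genes that differed between tumor and liver and in promoters of genes that were not detected. The letters CTTTGAT, the core of TCF/LEF binding, were searched on both strands and occurred among these promoters at a single site, which lies in both of the overlapping windows of Mmp7, and in 3.73% of all promoters. Mmp7 itself stayed at or under 1.30 CPM in every library.

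Of the 79 genes, 18 had no count in any library and 7 had between 1 and 10 counts in all. The 18 were 11 Adam genes of mainly germ-line expression, the collagenases Mmp1a and Mmp1b, and Mmp10, Mmp16, Mmp20, Adamts18 and Adamts19. At the other end, 35 genes had a count in every library. In the livers, the highest level per kb of exon was that of Mmp19, a secreted MMP that cuts basement membrane proteins, with 31.6 ± 4.62 CPM per kb (SD, n = 6). It was followed by Adam11, an ADAM without a catalytic site known from neurons, with 23.1 ± 23.1 CPM per kb, Adam9 with 15.9 ± 3.81, Mmp14 with 15.6 ± 5.84, Adam17 with 12.1 ± 3.36, Mmp15 with 8.70 ± 2.90, Adam10 with 7.19 ± 1.33 and Mmp24 with 4.74 ± 1.15 CPM per kb. Neighbours in this order lay within the larger of their SDs of each other, except for Adam17 and Mmp15 and for Adam10 and Mmp24. In the tumors Mmp14 came first, with 27.6 ± 8.60 CPM per kb (n = 6), ahead of Mmp19 with 22.4 ± 6.73, which was again within the spread. Adam9, Adam17, Adam10, Mmp15, Timp3 and Mmp24 followed, between 13.5 ± 4.45 and 7.20 ± 6.23 CPM per kb. Adam11 was no longer among the 8 highest, and Timp3, at 9.51 ± 3.80 CPM per kb, had entered them. Exons of Mmp19, Mmp24 and Adam17 overlap those of Tmem198b, BC029722 and Iah1 on the opposite strand. The sources used here do not give the strand setting of the counting, so reads of these pairs cannot be told apart.

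**Figure D1:**
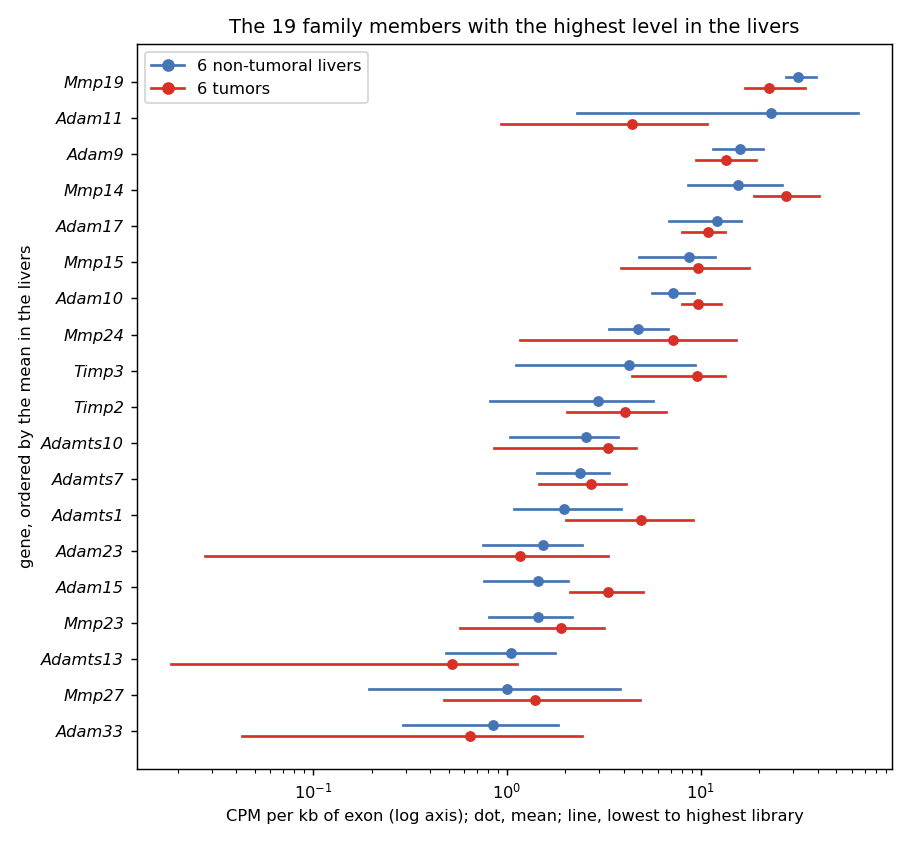
Level per kb of exon (CPM per kb, log axis) of the 19 genes with the highest mean in the livers, with the mean (dot) and the lowest to highest library (line) of the 6 non-tumoral livers in blue and the 6 tumors in red. Adam11 spans 2.30 to 64.8 CPM per kb in livers, and the lines of Adam15 in livers and tumors do not overlap.

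Tumors were compared with non-tumoral livers first, to ask which proteases and inhibitors mark the tumors whatever their class. After the filter on low counts, 37 of the 79 genes could be tested. In edgeR's quasi-likelihood test with Benjamini-Hochberg adjustment over 13822 genes, 7 were higher in tumors and none was lower, whereas 10.7% of all genes tested were called in either direction with 6.77% higher and 3.91% lower. The 7 were Mmp13, Mmp12, Adam4, Adam15, Adamts15, Adamts14 and Adamts9. A gene expressed in tumors alone passes the filter more readily than one at the floor everywhere, so the share called among the 37 is a description. The median log2 fold change was 0.463 over the 37 and 0.011 over all genes tested. With the mouse as a block, which compares each tumor with its own liver, 13 of the 37 were called against 15.9% of all genes. DESeq2, which was run without that filter, called 16 of the 79 genes, and 2675 genes in all. Its 16 included Adamts4 and Adam32, which were not among the 37. Without L662, edgeR called 3, and without T-HCC662 or T-HCC663 it called 11.

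Mmp13, collagenase 3, which cuts fibrillar collagen and lies at chr9:7272514-7283331 (GRCm38, GENCODE annotation), had between 0.227 and 1.05 CPM in the 6 livers, with a median of 0.526 CPM. Among the tumors, TCi-HCC981 held 36.7 CPM, T-HCC662 10.6, T-HCC941 8.26, T-HCC663 6.35, T-HCA992 6.09 and TCi-HCA984 4.60 CPM. Every tumor was above every liver, as in 2.93% of all genes tested. The log2 fold change was 4.40 (SE 0.585), or 21.1-fold, with an adjusted p of 0.00113 by edgeR. It was called whichever library was left out, with a log2 fold change of 3.65 to 4.69.

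Mmp12, the macrophage elastase (chr9:7344381-7369499), ranged from 0.141 to 2.31 CPM in livers, with a median of 0.908 CPM. TCi-HCC981 again held the most, 36.3 CPM, followed by T-HCA992 with 13.3, T-HCC662 with 11.6, T-HCC941 with 10.1, TCi-HCA984 with 8.01 and T-HCC663 with 5.65 CPM, and no tumor overlapped the livers. The log2 fold change was 3.69 (SE 0.643, 12.9-fold) with an adjusted p of 0.00418, and the call held without any 1 library. Of the 5 macrophage markers (Adgre1, Cd68, Csf1r, Clec4f and Itgax), none was called between tumors and livers. Their summed level was 73.2 to 750 CPM in livers and 69.3 to 478 CPM in tumors. The highest sums, in L981 and TCi-HCC981, were in the same samples as the highest Mmp12 of each tissue. The other tumors did not keep that order. T-HCC662 had the lowest sum, 69.3 CPM, with 11.6 CPM of Mmp12, and T-HCC663 had a sum of 351 CPM with the lowest tumor Mmp12, 5.65 CPM. None of the 5 macrophage markers was at 0 in any library. The part of macrophages in the level of Mmp12 was not tested.

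The stromelysins and matrilysin, which cut laminin, fibronectin and proteoglycans, stayed low. Mmp3 reached at most 0.270 CPM and Mmp10 had no count. Mmp11, stromelysin 3, was tested and had a log2 fold change of 1.50 (adjusted p = 0.0670, SE 0.490), with 4.69 CPM in T-HCC662 as its highest value. The neutrophil collagenase Mmp8 did not exceed 0.719 CPM. The gelatinases cut denatured and basement membrane collagen. Mmp2 had medians of 1.56 CPM in livers and 1.62 CPM in tumors, with 5.16 CPM in T-HCA992 as the highest library, and a log2 fold change of 0.18 (adjusted p = 0.854, SE 0.494). Mmp9 had medians of 0.740 and 0.748 CPM and a log2 fold change of -0.20 (adjusted p = 0.858, SE 0.538). Neither gelatinase passed the edgeR test in any of the comparisons made here.

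Of the membrane-type MMPs, Mmp14 (MT1-MMP) had a greater level in the tumor of each of the 6 mice than in its liver, with a range of 35.7 to 109 CPM (median 61.8) in livers and of 78.7 to 171 CPM (median 108) in tumors. Its log2 fold change of 0.81 (SE 0.264) missed the threshold, with an adjusted p of 0.0664, and passed it once the mouse was a block (0.84, adjusted p = 0.0247). Mmp15 (MT2-MMP), with medians of 47.6 CPM in livers and 43.1 CPM in tumors, had a log2 fold change of 0.15 (adjusted p = 0.832, SE 0.343). Mmp24 (MT5-MMP) separated the tumor classes and is described with them. Mmp19 was lower in the tumor of each of the 6 mice, with medians of 101 and 68.2 CPM, and a log2 fold change of -0.51 (SE 0.187) that was not called (adjusted p = 0.101) unless the block was used (adjusted p = 0.0306). Mmp27, a little-studied stromelysin-like MMP, measured 6.64 and 8.42 CPM in L981 and TCi-HCC981 and at most 1.78 CPM in the other 10 libraries. Mmp11, Mmp27 and, among the genes below, Adam8 and Mmp23 were picked for description after their values were seen.

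Among the ADAMs, Adam4 and Adam15 separated all tumors from all livers. Adam15, a catalytically active ADAM of epithelial and endothelial cells, had 2.27 to 6.17 CPM in livers (median 4.32) and 6.31 to 14.9 CPM in tumors (median 9.78), a log2 fold change of 1.19 (SE 0.288, 2.28-fold, adjusted p = 0.0203). Without L662, its adjusted p was 0.0512. Adam4, of mainly germ-line expression, had 0.227 to 0.872 CPM in livers (median 0.612) and 1.31 to 2.32 CPM in tumors (median 1.79), a log2 fold change of 1.59 (adjusted p = 0.00998, SE 0.334). Parts of its transcript are nearly identical to Gm4787 and Gm33242, so the assignment of its reads is uncertain. Of the 5 endothelial markers (Pecam1, Cdh5, Stab2, Lyve1 and Kdr), Pecam1 was called higher in tumors (1.59, SE 0.376, adjusted p = 0.0179), and the list summed to 42.4 to 115 CPM in livers and 49.3 to 214 CPM in tumors. The part of endothelial cells in the level of Adam15 was not tested. The testis markers Tnp1, Prm1 and Ddx4 summed to at most 0.540 CPM, with Tnp1 at 0 in all libraries.

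The main sheddases were not called between all tumors and all livers. Adam10 was higher in the tumor of each mouse, with medians of 31.5 CPM in livers and 43.0 CPM in tumors. Its log2 fold change of 0.43 (SE 0.164) had an adjusted p of 0.115, and of 0.0347 with the mouse as a block. Adam17 (TACE) had medians of 54.6 and 46.0 CPM (log2 fold change -0.17, SE 0.200, adjusted p = 0.637), and Adam9 had medians of 59.0 and 46.2 CPM (-0.24, SE 0.226, adjusted p = 0.538). Adam19, known from heart development and neuregulin shedding, was higher in the tumor of 6 of 6 mice, with medians of 1.93 and 5.64 CPM (1.37, SE 0.424), with an adjusted p of 0.0552 and of 0.0435 with the block. Adam8, an ADAM of leukocytes, had 0.379 to 3.23 CPM in livers and 1.25 to 7.55 CPM in tumors, and was also higher in 6 of 6 mice (1.42, SE 0.501), with an adjusted p of 0.0877 and of 0.0267 with the block. Exons of Adam15 overlap 4731419I09Rik, and those of Adam19 overlap Gm16033 and Gm16034.

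The neuronal ADAMs lack a working catalytic site. Adam11 was lower in the tumor of each of the 6 mice, but the livers themselves ranged from 11.7 CPM in L984 to 331 CPM in L981, with 117 CPM in L662, 31.5 in L663, 158 in L941 and 58.3 in L992. The tumors lay between 4.73 and 54.3 CPM. With a log2 fold change of -2.41 (SE 0.755) its adjusted p was 0.0583 by edgeR, and DESeq2 called it lower. Adam23, at 4.93 to 15.9 CPM in livers and 0.180 to 21.7 CPM in tumors, had a log2 fold change of -0.39 (adjusted p = 0.766, SE 0.691). Adam33, a catalytically active ADAM known from fibroblasts and smooth muscle, had its 2 extreme values in the Ctnnb1-mutated tumors (0.135 CPM in T-HCC662, 7.71 CPM in T-HCC663) and a log2 fold change of -0.40 (adjusted p = 0.782, SE 0.741).

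Among the ADAMTS proteases that cut the proteoglycans versican and aggrecan, 4 of 7 could be tested and 2 were called. Adamts15 had a median of 1.96 CPM in livers (0.636 to 3.82) and 7.27 CPM in tumors (2.56 to 24.9), with a log2 fold change of 2.22 (adjusted p = 0.0298, SE 0.587). It was higher in 5 of 6 mice, the exception being the pair of L984 and TCi-HCA984, and the call was lost without T-HCC941 or any 1 of the 4 p21+/Tert livers. With the mouse as a block its adjusted p was 0.0759. Adamts9 had medians of 1.02 and 3.98 CPM (1.57, SE 0.449, adjusted p = 0.0402) and was higher in 6 of 6 mice, and the call was kept in 3 of the 12 fits that left out 1 library. Adamts1, higher in 6 of 6 mice with medians of 8.28 and 24.2 CPM, narrowly missed the threshold (1.33, SE 0.404, adjusted p = 0.0519) and passed it with the block (adjusted p = 0.0289). Exons of Adamts9 overlap A730049H05Rik and Gm15737 on the opposite strand.

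The procollagen N-propeptidases trim the ends of fibrillar procollagens. Adamts14 had a median of 1.50 CPM in livers (0.727 to 3.65) and 7.56 CPM in tumors (0.901 to 32.7), with a log2 fold change of 2.59 (adjusted p = 0.0328, SE 0.700). The ranges overlapped, with T-HCC662 at 0.901 CPM and T-HCC663 at 2.98 CPM below the 3.65 CPM of L981, and T-HCC662 was below its own liver at 1.27 CPM. The call was kept in 4 of 12 fits without 1 library. Adamts2 had medians of 2.93 and 3.53 CPM (0.55, SE 0.600, adjusted p = 0.608). Of the 8 stellate cell and fibroblast markers (Col1a1, Col1a2, Col3a1, Lrat, Des, Pdgfrb, Acta2 and Dcn), none was called in this comparison. Their summed level ran from 48.4 to 249 CPM in livers and from 28.4 CPM in T-HCC662 to 397 CPM in T-HCA992, and none was at 0. Their part in the levels of the secreted proteases and inhibitors was not tested.

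**Figure D2:**
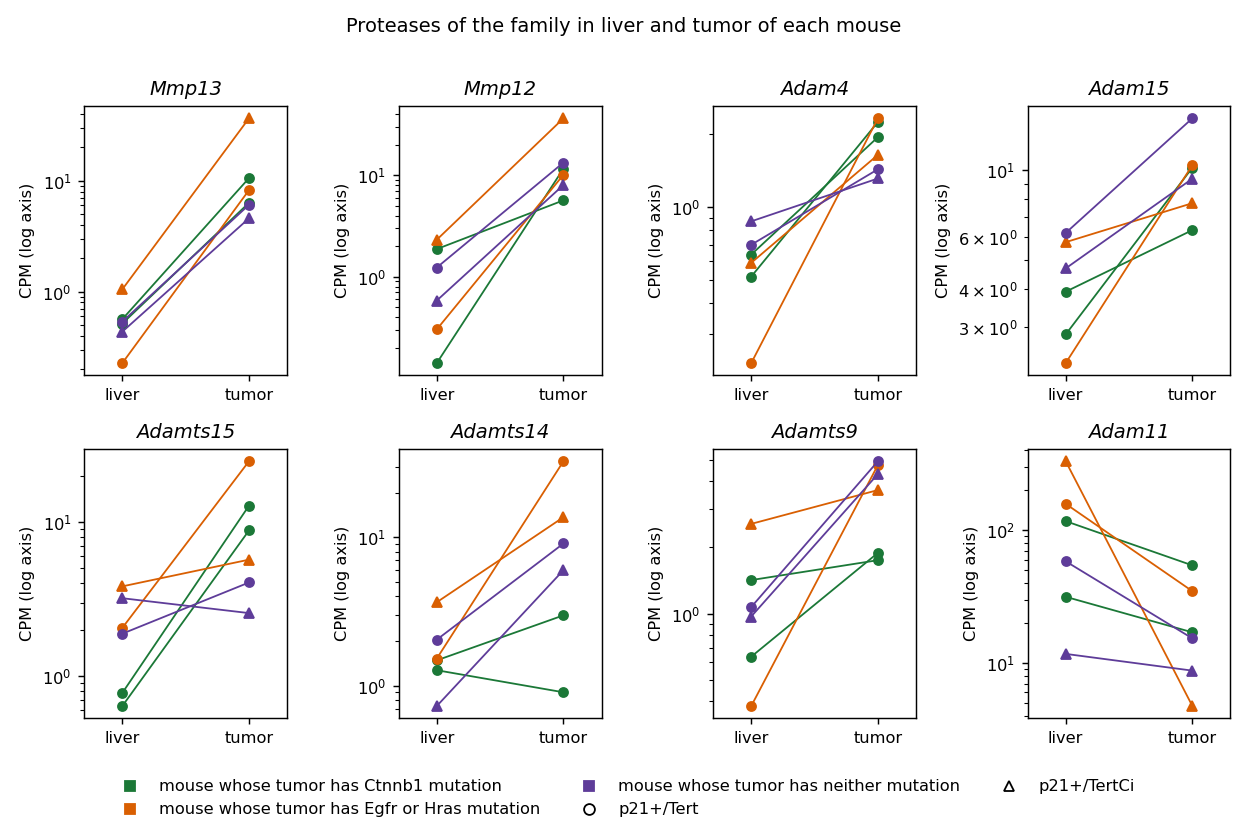
CPM (log axis) of the 7 genes called between tumors and livers and of Adam11 in the liver and the tumor of each mouse, joined by a line, with color for the driver class of the tumor and symbol for the genotype. For Mmp13, Mmp12, Adam4 and Adam15 all 6 tumors lie above all 6 livers, and for Adam11 each tumor lies below its own liver.

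Of the TIMPs, none was called between all tumors and all livers. Timp3, which is bound to the matrix, was the most abundant, with 5.23 to 43.9 CPM in livers (median 17.9) and 20.7 to 63.1 CPM in tumors (median 49.6). Its log2 fold change was 1.17 (adjusted p = 0.108, SE 0.439). Its level was below that of the own liver in both Ctnnb1-mutated tumors (from 23.5 to 20.7 CPM for T-HCC662 and from 43.9 to 25.3 CPM for T-HCC663) and above it in the other 4. With the mouse as a block, Timp3 was called higher in Egfr- or Hras-mutated tumors (2.75, adjusted p = 0.00561, against 1.46 and 0.0699 without it) and in tumors with neither mutation (1.70, adjusted p = 0.0422, against 1.48 and 0.101) and lower in Ctnnb1-mutated than in other tumors (-2.73, adjusted p = 0.0155, against -1.29 and 0.185). Timp2 had medians of 9.88 and 14.3 CPM (0.46, SE 0.386, adjusted p = 0.488). Timp1, the inducible inhibitor of wound healing and fibrosis, was at 0 in L662 and L663 and at 0.910 CPM in L941, 0.268 in L992, 1.81 in L981 and 1.16 in L984. The tumor levels were 10.5 CPM for T-HCC941, 4.67 for TCi-HCC981, 2.04 for TCi-HCA984, 1.50 for T-HCA992, 1.45 for T-HCC663 and 0.225 for T-HCC662. All 6 tumors exceeded their own livers, and the log2 fold change of 2.24 (SE 0.985) had an adjusted p of 0.168, and of 0.0381 with the block. Timp4 was detected above the floor in T-HCC941 alone, with 1.57 CPM, and was at or under 0.0568 CPM in the other 11 libraries. Timp3 shares near-identical sequence with Syn3, and an exon of Timp4 overlaps Syn2 on the opposite strand. Summed over the 4 genes per kb of exon, TIMP levels were 2.95 to 11.7 CPM per kb in livers and 6.68 to 26.1 CPM per kb in tumors.

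**Figure D3:**
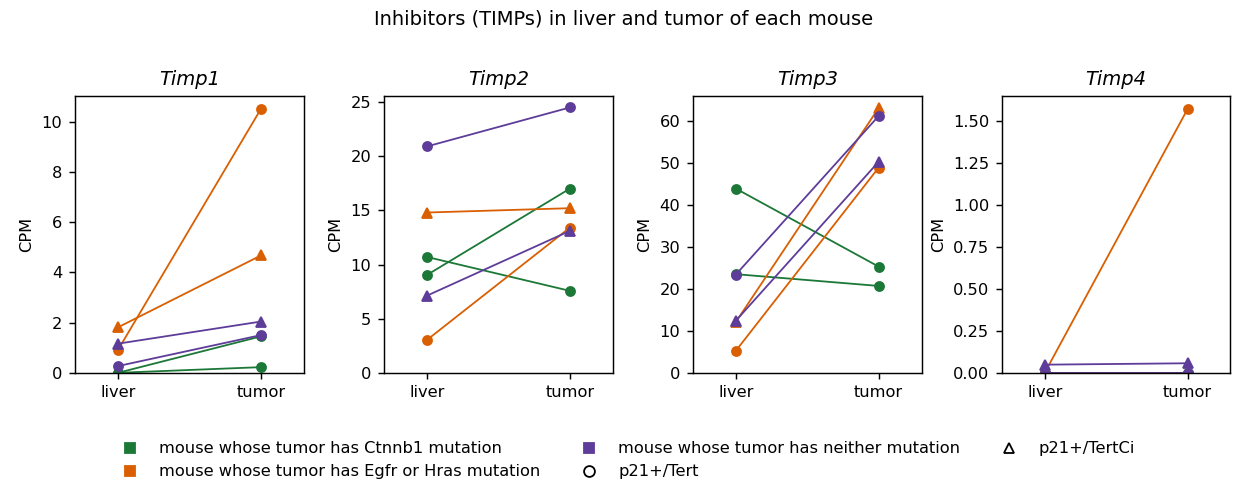
CPM of the 4 TIMP genes in the liver and the tumor of each mouse, on linear axes from 0, with color for the driver class and symbol for the genotype. T-HCC941 stands highest for Timp1 (10.5 CPM) and Timp4 (1.57 CPM), and Timp3 is lower in T-HCC662 and T-HCC663 than in their own livers.

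Within genotypes, 47 of the 79 genes could be tested, among 15182 genes. Between the 4 p21+/Tert tumors and the 4 p21+/Tert livers, 5 were higher and none lower, with 6.49% of all genes called, 4.20% higher and 2.30% lower. They were Mmp13 (log2 fold change 4.04, SE 0.625, adjusted p = 0.00663), Mmp12 (3.48, SE 0.769, adjusted p = 0.0243), Adamts15 (3.21, SE 0.602, adjusted p = 0.0128), Adam15 (1.44, SE 0.358, adjusted p = 0.0375) and Adam4 (1.89, SE 0.448, adjusted p = 0.0316). With the mouse as a block, Adam4 had an adjusted p of 0.0634 and the others kept their call. Mmp13 was the single call left without L662. DESeq2, without the filter, called 14 of the 79 genes, and 2090 genes in all. Between the 2 p21+/TertCi tumors and the 2 p21+/TertCi livers, edgeR called 0 members and 0% of all genes. Of the 47, 4 had an unadjusted p under 0.05, as had 1618 of all 15182 genes. DESeq2 called Mmp13 and Mmp12 higher and Adam11 lower, and 366 genes in all. Mmp13 had a log2 fold change of 4.75 (SE 0.883) there, and Mmp12 one of 3.90 (SE 1.08), with edgeR adjusted p of 0.200 and 0.268. These comparisons have unequal numbers of mice, so calls in 1 genotype alone do not show a difference between them.

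The difference between the genotypes in the change from liver to tumor was tested directly. EdgeR called 0 of the 47 genes and 0% of all genes, and DESeq2 called 0 of the 47. Against 556 of all 15182 genes, 3 of the 47 had an unadjusted p under 0.05. Those 3 were Adamts15, Mmp24 and Mmp23, whose change was greater in p21+/Tert mice by 3.00 (SE 0.983), 2.19 (SE 0.771) and 1.82 (SE 0.741) on the log2 scale. Both Ctnnb1-mutated tumors were p21+/Tert, so this contrast mixes genotype with driver class. Mmp24 was above the own liver in these tumors alone (65.3 and 64.0 CPM, against 18.1 and 19.3 CPM). In T-HCC941 and T-HCA992 Mmp24 was below the own liver (23.8 and 17.0 CPM, against 29.0 and 19.2 CPM). Adamts15 and Mmp23 were above the own liver in every p21+/Tert tumor. The part of driver class in the difference between genotypes was not tested. For Mmp13 and Mmp12 the difference was -0.71 (SE 0.986) and -0.42 (SE 1.23), each with an adjusted p of 1. Between the livers of the genotypes 0 members and 0% of genes were called by edgeR and 0 members by DESeq2. Of the 47, 5 had an unadjusted p under 0.05, as had 756 of all 15182 genes. Adam10 was 0.45 lower on the log2 scale in p21+/Tert livers (SE 0.173) and Adam17 was 0.62 higher (SE 0.251), both with an adjusted p of 0.930. Between p21+/Tert and p21+/TertCi tumors of the classes that held both genotypes, edgeR and DESeq2 again called 0 members, and edgeR 0% of genes. An unadjusted p under 0.05 was found for 5 of the 47 and for 1259 of all 15182 genes. Missing the threshold here does not show that the genotypes are alike.

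Each driver class was then set against the 6 livers. The 3 comparisons share these livers, and each class holds 2 tumors, so the calls rest on the spread of all groups in 1 model. Against the livers, edgeR called 9 of the 47 in Ctnnb1-mutated tumors (7 higher, 2 lower), 10 in Egfr- or Hras-mutated tumors (9 higher, 1 lower) and 8 in tumors with neither (8 higher). Of all genes, 8.20% were called in the Ctnnb1-mutated tumors (5.00% higher, 3.20% lower), 18.2% in the Egfr- or Hras-mutated tumors (9.57% higher, 8.62% lower) and 8.10% in tumors with neither (5.67% higher, 2.43% lower). The shares of the 47 were 19.1, 21.3 and 17% in that order, so that in Egfr- or Hras-mutated tumors the share lay near that of all genes. A gene high in 1 class alone passes the filter on low counts more readily than one at the floor everywhere. Adam2, Adam32, Adamts4 and Mmp28, all called here, were among the 47 and not among the 37 tested between tumors and livers. The shares of the 47, here and below, are therefore a description. Mmp13 and Mmp12 were called higher in each class. Mmp13 had log2 fold changes of 3.87 (SE 0.508), 5.27 (SE 0.512) and 3.22 (SE 0.511) in that order, and Mmp12 of 2.95 (SE 0.704), 4.37 (SE 0.702) and 3.28 (SE 0.701). The other higher genes in Ctnnb1-mutated tumors were Adamts15, Adam4, Mmp24, Adam32 and Adam2, and Adamts13 and Adamts3 were lower there. With the mouse as a block, the counts were 5, 5 and 2 of 47 (10.6, 10.6 and 4.26%), against 5.61, 11.9 and 1.56% of all genes in the same fits, so that the share in Egfr- or Hras-mutated tumors was below that of all genes. Mmp13 was called in each class, and Mmp14, Mmp24, Adamts15 and Adamts13 were the others called in Ctnnb1-mutated tumors. Mmp12 then kept its call in Egfr- or Hras-mutated tumors, with adjusted p of 0.0862 in Ctnnb1-mutated tumors and 0.0885 in tumors with neither. Without T-HCA992, Mmp13 and Mmp12 were not called in tumors with neither, and Mmp12 was not called in Ctnnb1-mutated tumors without T-HCC662 or T-HCC663.

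In the Egfr- or Hras-mutated tumors, the higher genes were Mmp13, Mmp12, Adamts14, Adamts15, Adamts4, Adamts9, Adam19, Adam4 and Timp1, and Mmp19 was lower. Of these, Adamts15 (2.35, edgeR adjusted p = 0.0370) and Adam4 (1.77, adjusted p = 0.0348) were also called higher in Ctnnb1-mutated tumors against the livers. Adamts14 was at 32.7 CPM in T-HCC941 and 13.7 CPM in TCi-HCC981 (log2 fold change 3.66, SE 0.522, adjusted p = 0.000999), and was called whichever library was left out. Adamts15 was at 24.9 CPM in T-HCC941 and 5.70 CPM in TCi-HCC981, against 0.636 to 3.82 CPM in livers (2.84, SE 0.605, adjusted p = 0.00848), and its log2 fold change was 1.42 without T-HCC941, with an adjusted p of 0.241. Timp1 had a log2 fold change of 3.37 (adjusted p = 0.0442, SE 1.05), and the call was kept in 3 of 12 fits without 1 library. Mmp19 was at 58.7 and 60.6 CPM in these tumors against 95.4 to 136 CPM in livers (-0.90, SE 0.241, adjusted p = 0.0244). With the block, Mmp13, Mmp12 and Adamts14 kept their call, Mmp19 had an adjusted p of 0.0541, Timp1 of 0.106 and Adamts15 of 0.131, and Adamts4 (0.0934), Adam19 (0.0922), Adam4 (0.0940) and Adamts9 (0.187) were not called either, whereas Adam11 was called lower (-4.13, adjusted p = 0.0366). Of the 47, edgeR called 4 without T-HCC941. The macrophage marker Itgax, the T cell marker Cd8a, the endothelial marker Pecam1 and the bile duct marker Sox9 were called higher in this class. They were 1 of 5, 1 of 4, 1 of 5 and 1 of 5 markers of their lists, in that order. The bile duct list as a whole had a median log2 fold change of -2.321 in this class. Its markers Krt7, Krt19 and Epcam were at or under 0.324 CPM in these tumors, against 0.193 to 2.94 CPM in livers. Spp1 was at 383 CPM in T-HCC941 and 4.16 CPM in TCi-HCC981. T cell markers summed to 23.0 CPM in T-HCC941 and 11.0 in TCi-HCC981, against 0.679 to 7.84 CPM in livers. In the tumors of the other classes they summed to 1.76 to 18.9 CPM, with the highest in T-HCC663. The part of these cell types in the levels of the proteases was not tested.

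In the tumors with neither mutation, Mmp13, Mmp12, Adamts1, Adamts4, Adamts9, Adamts14, Adam15 and Mmp28 were higher. Adamts4, aggrecanase 1, was at 2.94 CPM in T-HCA992 and 1.76 CPM in TCi-HCA984, against 0 to 0.420 CPM in livers (log2 fold change 3.36, SE 0.845, adjusted p = 0.0336). Its levels in the Egfr- or Hras-mutated tumors were 2.43 and 2.05 CPM, and in the Ctnnb1-mutated ones 0.270 and 0.175 CPM. Mmp28 (epilysin), at 2.33 and 1.19 CPM against 0 to 0.533 CPM in livers (3.33, SE 0.909, adjusted p = 0.0458), was called in 2 of 12 fits without 1 library, and its exons overlap 1700020L24Rik on the opposite strand. Without T-HCA992, edgeR called 0 of the 47 genes in this class. With the block, Adamts4 had an adjusted p of 0.244, Mmp28 of 0.319, Adamts14 of 0.108, Adam15 of 0.267, Adamts1 of 0.272 and Adamts9 of 0.194. Adamts1 was called in 5 and Adamts9 in 1 of the 12 fits without 1 library, Adamts14 in 6, Adam15 in 8 and Adamts4 in 9. Of the fibroblast markers, Col1a1 and Acta2 were called higher in this class (2 of 8). Acta2 was at 15.5 CPM in T-HCA992 and at 1.02 CPM in TCi-HCA984, against 0.227 to 2.74 CPM in livers. Col1a1 was at 66.8 and 31.7 CPM, against 0.834 to 17.8 CPM in livers. The whole list summed to 397 CPM in T-HCA992 and 200 CPM in TCi-HCA984, the latter within the liver range of 48.4 to 249 CPM. The endothelial marker Pecam1 (1.88, adjusted p = 0.00933, 1 of 5) and the bile duct marker Sox9 (1.16, adjusted p = 0.0364, 1 of 5) were called higher too. The part of these cells was not tested.

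**Figure D4:**
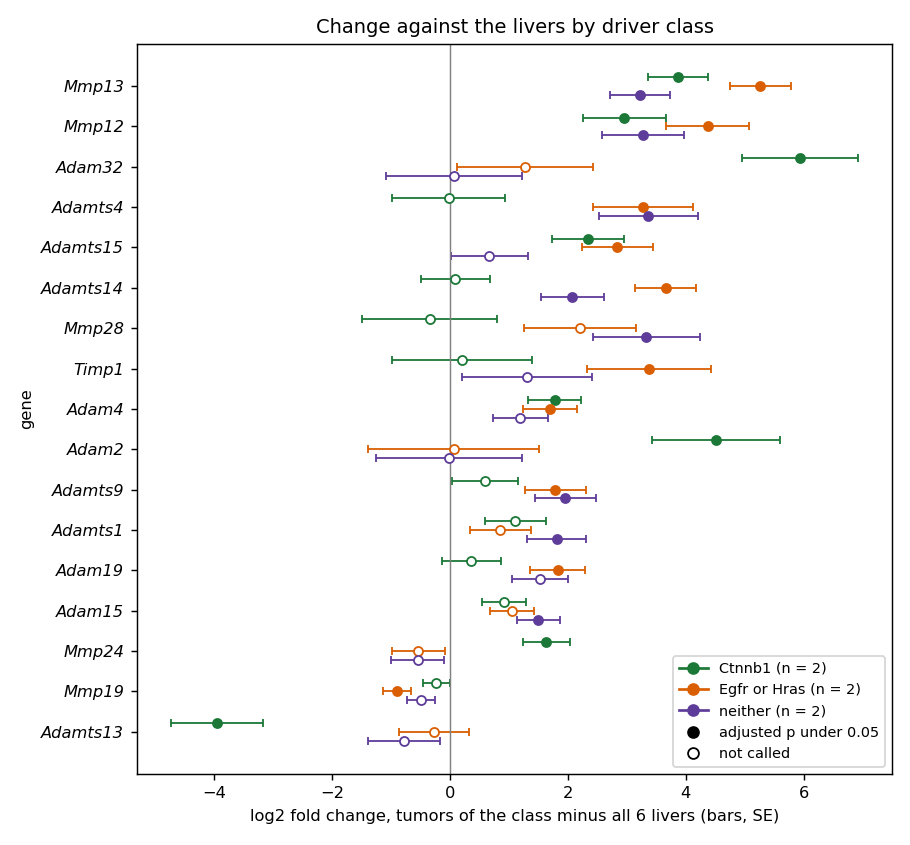
Log2 fold change against all 6 livers (bars, SE) for the 17 genes called in at least 1 driver class other than Adamts3, with filled dots where the adjusted p was under 0.05. Mmp13 and Mmp12 are filled in all 3 classes, and Adam32, Adam2, Mmp24 and Adamts13 are filled for Ctnnb1 and open for the other classes.

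Ctnnb1-mutated tumors were also compared with the 4 other tumors, which tests the difference between classes itself. Of the 47 genes, 3 were higher and 3 lower (12.8%), which is near the 12.5% of all genes called (6.76% higher, 5.72% lower). With the mouse as a block, 2 were called (4.26%, against 2.90% of all genes). Mmp24, a membrane-type MMP best known from neurons, was at 65.3 and 64.0 CPM in the tumors T-HCC662 and T-HCC663, whereas T-HCC941 had 23.8, T-HCA992 17.0, TCi-HCA984 10.9 and TCi-HCC981 5.03 CPM. The livers lay between 14.4 and 29.0 CPM, so that the 2 Ctnnb1-mutated tumors stood above the other 10 libraries. The log2 fold change was 2.18 against the other tumors (SE 0.443, adjusted p = 0.0115, and 0.0304 with the block) and 1.64 against the livers (SE 0.403, adjusted p = 0.0298). The call against other tumors was lost without T-HCC662, and that against livers without L662, L663, L992, T-HCC662 or T-HCC663.

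Adam32 and Adam2 belong to the ADAMs of the germ line. Adam32 measured 12.2 CPM in T-HCC662, 2.63 CPM in T-HCC663 and at most 0.462 CPM in the other 10 libraries, with a log2 fold change of 5.27 against the other tumors (SE 1.09, adjusted p = 0.0124). Adam2 (fertilin β) measured 1.53 and 1.05 CPM in these tumors and at most 0.212 CPM elsewhere, that highest value being L662 (4.49, SE 1.22, adjusted p = 0.0353). Neither was called with the block (adjusted p = 0.342 and 0.941), nor without T-HCC662, and Adam2 also lost its call without T-HCC663, T-HCA992, TCi-HCC981 or L663. Of the testis markers, Tnp1 and Prm1 were at 0 in both Ctnnb1-mutated tumors, and Ddx4 was at 0 in T-HCC662 and at 0.131 CPM in T-HCC663.

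Adamts13, which cuts von Willebrand factor and is made in the liver by stellate cells, fell to 0.0901 and 0.570 CPM in T-HCC662 and T-HCC663. In the other tumors it measured 2.44 to 5.45 CPM, and in the livers 2.37 to 8.59 CPM. The log2 fold change was -3.42 against the other tumors (SE 0.778, adjusted p = 0.0183) and -3.95 against the livers (SE 0.782, adjusted p = 0.0115), and both calls were lost without T-HCC662. With the block, the adjusted p were 0.0680 and 0.0321. Part of its transcript is nearly identical to Fmo1. Adamts2 was at 0.541 and 1.14 CPM in Ctnnb1-mutated tumors and 2.47 to 10.7 CPM in the others (-2.63, SE 0.679, adjusted p = 0.0301). Adamts14 was at 0.901 and 2.98 CPM against 6.02 to 32.7 CPM (-2.78, SE 0.702, adjusted p = 0.0278). Both calls were lost with the block (adjusted p = 0.121 and 0.169) and without T-HCC662, T-HCC941 or T-HCA992, that of Adamts2 also without T-HCC663. Adamts3, the third propeptidase, had no count in either Ctnnb1-mutated tumor and a mean of 0.443 CPM in livers, and was at least 6.65-fold lower when a floor of 3 counts over both tumors is used. With the livers, it passed the test at an adjusted p of 0.0450, in 3 of 12 fits without 1 library, and not with the block (adjusted p = 0.0872).

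Some stellate cell and fibroblast markers were also lower. Against the livers, Des, Dcn and Lrat were lower in Ctnnb1-mutated tumors (3 of 8), and against the other tumors Des and Pdgfrb were (2 of 8). The list summed to 28.4 and 83.8 CPM in T-HCC662 and T-HCC663, against 165 to 397 CPM in the other tumors and 48.4 to 249 CPM in livers, with none of the 8 at 0. Col1a1, at 6.76 and 12.4 CPM in these tumors, lay within its liver range of 0.834 to 17.8 CPM. The part of these cells in the lower Adamts13, Adamts2, Adamts3 and Adamts14 was not tested. Without T-HCC662, edgeR called 0 of the 47 genes between Ctnnb1-mutated and other tumors, and without T-HCA992 it called 3. Of the hepatocyte markers, Alb and Serpina1c were also lower in Ctnnb1-mutated than in other tumors (2 of 5), as were the endothelial markers Pecam1 and Kdr (2 of 5) and the bile duct marker Sox9 (1 of 5). The part of these differences was not tested.

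**Figure D5:**
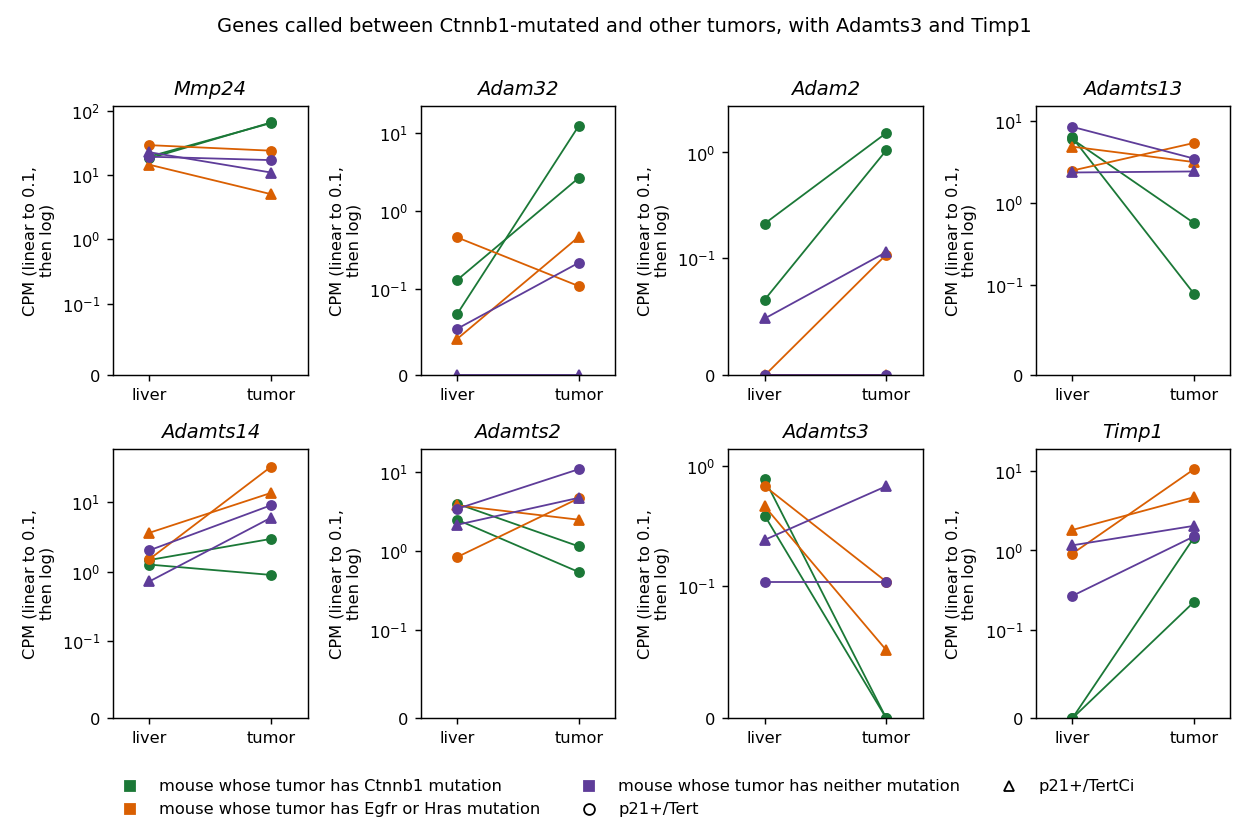
CPM (axis linear to 0.1 and log above) in the liver and the tumor of each mouse for the 6 genes called between Ctnnb1-mutated and other tumors, with Adamts3 and Timp1, colored by the driver class of the tumor and with symbols for genotype. In the 2 mice with Ctnnb1-mutated tumors (green), Mmp24, Adam32 and Adam2 end highest and Adamts13, Adamts2 and Adamts3 end lowest.

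Egfr- or Hras-mutated tumors, both carcinomas, did not separate from those with neither mutation, both adenomas. EdgeR called 0 of the 47 genes and 0% of all genes, and DESeq2 called 0 of the 47. Against 1331 of all 15182 genes, 6 of the 47 had an unadjusted p under 0.05. Mmp13 was the first of these, with 8.26 and 36.7 CPM against 6.09 and 4.60 CPM, a log2 fold change of 2.05 (SE 0.671) and an adjusted p of 0.522.

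Other genes of the pathway were read from lists of activators and inhibitors, ADAM partners, shed substrates and matrix substrates. As above, 10.7% of all genes were called between tumors and livers. Of 13 genes for shed substrates, 10 passed the filter on low counts, which a gene expressed in tumors alone passes more readily. The shares and medians of these lists are therefore a description. Of these 10 genes, 4 were higher in tumors and none lower, and the median log2 fold change was 1.6, against 0.011 over all genes. The 4 were the EGF receptor ligands Areg (4.65, SE 0.765, adjusted p = 0.00302), Btc (2.80, SE 0.417, adjusted p = 0.00188) and Tgfa (0.98, SE 0.154, adjusted p = 0.00235), and the chemokine Cx3cl1 (2.62, SE 0.460, adjusted p = 0.00427). Areg had no count in 5 of 6 livers and 0.811 to 1.36 CPM in tumors, and Tgfa rose from 16.8 to 22.8 CPM in livers to 30.2 to 49.0 CPM in tumors. The EGF receptor ligand Hbegf was called higher in Egfr- or Hras-mutated tumors against the livers (3.44, SE 0.480, adjusted p = 0.000868), with 18.1 and 7.70 CPM.

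Among 8 tested ADAM partners, 3 were higher in tumors, and these were the iRhoms Rhbdf1 (1.29, SE 0.185, adjusted p = 0.00158) and Rhbdf2 (0.91, SE 0.238, adjusted p = 0.0284) and their stabilizer Frmd8 (0.98, SE 0.210, adjusted p = 0.0109), all needed for the maturation or surface stability of ADAM17. Rhbdf1 was at 11.1 to 20.8 CPM in livers and 26.1 to 49.2 CPM in tumors, without overlap. Among 13 tested activators and inhibitors, the plasminogen activator Plau (1.68, SE 0.504, adjusted p = 0.0496) and its receptor Plaur (1.96, SE 0.405, adjusted p = 0.00915) were higher and none was lower, with a median of 0.017 over the list. The 2 of 13 here and the 1 of 11 matrix genes below lie near the share of all genes called. In Ctnnb1-mutated tumors against livers, the tissue plasminogen activator Plat was higher (67.9 and 53.5 CPM against 0 to 8.57 CPM). Plasminogen (Plg), the procollagen C-proteinase Bmp1 and the membrane-anchored MMP inhibitor Reck were lower in that class. Of 11 tested matrix substrates and ADAMTS-like genes, 1 was called, the basement membrane collagen Col4a1 (2.52, SE 0.470, adjusted p = 0.00552), with 6.07 to 37.8 CPM in livers and 36.4 to 196 CPM in tumors.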

How the data were processed

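Poly(A) RNA of 12 samples was sequenced by the authors as paired ends on a NovaSeq instrument. After a quality filter, reads were aligned by Subread to mm10 extended by mCherry and assigned to genes by featureCounts 1.6.4 (version from the submitters' processing notes). The values deposited by the authors are raw counts per gene symbol without normalization. The annotation, the strand setting and the handling of multi-mapping reads are not given in the sources used here. Their own test included a term for the sequencing run. The labels give no run per sample, so the tests here lack it. Tissue, genotype and mouse were taken from the labels, and the driver class of a tumor from the mutations that the study lists. L662 carries another animal number in its title, which the study does not list, and was taken as the liver of the T-HCC662 mouse by elimination, and the header of its deposited file carries that mouse's number. The WT neoplasm and 3 further p21+/TertCi tumors of the study were not analysed here.

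The genes described, the other gene lists and the markers were chosen with earlier results of these data known. Counts were tested with edgeR 4.0.16 in R 4.3.3 (TMM scaling, filterByExpr, quasi-likelihood F test, Benjamini-Hochberg adjustment over all genes tested, threshold 0.05). Models were fitted on all 12 libraries, by tissue, by genotype and tissue, and by driver class. SEs were derived as the absolute log2 fold change over the root of the F statistic. Replicates are separate mice. Same-numbered tumors and livers come from 1 animal, so the numbers pair the samples. Deviations from the group means over 15182 genes correlated between a tumor and its own liver with r of 0.51 (TCi-HCC981), 0.51 (TCi-HCA984), 0.386 (T-HCA992), 0.129 (T-HCC662), 0.046 (T-HCC663) and 0.012 (T-HCC941), against a median of -0.043 with livers of other mice. The fit with the mouse as a block, DESeq2 1.42.0, RLE scaling, no filter on low counts and leaving out each library in turn were alternatives. The fits were tested on simulated data. Named with values were all members called in any comparison, the 4 Timp genes, Adam10, Adam17, Mmp2, Mmp9 and Mmp14, the 8 with the highest level per kb in livers or tumors, and up to 5 with the largest change in each direction. Exon lengths and overlaps are from GENCODE, to which all 79 symbols matched, and near-identical transcripts were sought with minimap2 (at least 100 aligned bases at 95% identity). Promoters are from RefSeq.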

Additional observations from a re-analysis of the deposited data

Results flagged for a closer look

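In 127 groups of 4 or 6 values of the named genes, 18 had a highest or lowest library that stood apart from the rest by Dixon's criterion. That criterion flags about 1 group in 20 when values are independent and normally distributed. The CPM used here hold zeros and the groups of 4 lie within those of 6, so the 18 cannot be set against that rate. In the 6 livers these were Mmp28 (0.533 CPM, L984, next 0.161), Adam2 (0.212 CPM, L662, 3 counts), Adamts1 (18.9 CPM, L992, next 9.89), Mmp9 (1.94 CPM, L984, next 1.05), Timp4 (0.0485 CPM, L984, 1 count and below the floor, all others at 0) and Adam32 (0.455 CPM, L941). In the 6 tumors they were Adam33 (7.71 CPM, T-HCC663, next 1.54), Adamts3 (0.682 CPM, TCi-HCA984), Timp4 (1.57 CPM, T-HCC941), Adam32 (12.2 CPM, T-HCC662), Mmp2 (5.16 CPM, T-HCA992) and, both in TCi-HCC981, Mmp13 (36.7 CPM, next 10.6) and Mmp12 (36.3 CPM, next 13.3). Within the 4 p21+/Tert livers, L941 was highest for Mmp24 (29.0 CPM) and lowest for Mmp13 (0.227 CPM). Within the 4 p21+/Tert tumors, T-HCC941 was highest for Timp4 (1.57 CPM) and Timp1 (10.5 CPM), and T-HCA992 for Adam9 (78.1 CPM).

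Levels differed between Ctnnb1-mutated and other tumors, in the test of that difference, for Mmp24 (log2 fold change 2.18), Adam32 (5.27), Adam2 (4.49), Adamts13 (-3.42), Adamts14 (-2.78) and Adamts2 (-2.63). These are the 6 genes described above, a share of the genes tested that lay near the share of all genes called. Both Ctnnb1-mutated tumors were p21+/Tert, so the class was not measured in p21+/TertCi mice. The other p21+/Tert tumors, T-HCC941 and T-HCA992, had 23.8 and 17.0 CPM of Mmp24 and 0.108 and 0.215 CPM of Adam32. In that order, they had 0.108 and 0 CPM of Adam2 and 5.45 and 3.51 CPM of Adamts13. Adamts14 was at 32.7 and 9.1 CPM in them, and Adamts2 at 4.59 and 10.7 CPM.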

How the results depend on the processing

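Scaling by RLE gave the same counts of called genes as edgeR's TMM in all 11 comparisons, and dropping the filter moved them by at most 1. DESeq2 called 16 instead of 7 members between tumors and livers, 14 instead of 5 in p21+/Tert mice, 3 instead of 0 in p21+/TertCi mice and 10 instead of 6 between Ctnnb1-mutated and other tumors. Over all genes it called 2675, 2090, 366 and 3078 in that order, against 1476, 986, 0 and 1895 by edgeR. With the mouse as a replicate block, the paired counts were 13 instead of 7 between tumors and livers, 5 instead of 9 for Ctnnb1-mutated tumors, 5 instead of 10 for Egfr- or Hras-mutated tumors, 2 instead of 8 for tumors with neither against livers, and 2 instead of 6 between Ctnnb1-mutated and other tumors. In the other comparisons that could be paired, the block moved no count by more than 1.5 times. Leaving out 1 library at a time gave 3 to 11 members between tumors and livers, 1 to 7 in p21+/Tert mice, 0 to 1 in p21+/TertCi mice, 1 to 9, 4 to 13 and 0 to 7 for the 3 driver classes against livers, and 0 to 6 between Ctnnb1-mutated and other tumors. It gave 0 in each of the remaining 4 comparisons. L662 and T-HCC662 left out together, an alternative chosen after seeing the data, gave 5 between tumors and livers. The sign of the tumor to liver change turned for 4 genes, none of them called: Adamts2 (-0.05 without T-HCA992, up to 0.77 without T-HCC662), Mmp2 (-0.34 without T-HCA992, up to 0.46 without L992), Mmp15 (-0.12 without T-HCA992, up to 0.31 without TCi-HCC981) and Mmp9 (0.15 without L984 and 0.03 without T-HCC662, down to -0.46 without TCi-HCC981). The cause was not tested. Within each tissue, the 8 genes with the highest level per kb stayed the same when counts per kb were scaled to 1000000 per library.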
